A study of Arabidopsis thaliana with 70 samples.

Results

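The modification genes of indole glucosinolates were followed across RNA libraries of Arabidopsis thaliana. They are the cytochrome P450 genes CYP81F1 (AT4G37430), CYP81F2 (AT5G57220), CYP81F3 (AT4G37400) and CYP81F4 (AT4G37410), the methyltransferase genes IGMT1 (AT1G21100), IGMT2 (AT1G21120), IGMT3 (AT1G21110), IGMT4 (AT1G21130) and IGMT5 (AT1G76790), and PEN2 (AT2G44490). They were taken by gene identifier and make up 10 of the 33597 genes in the deposited table. The annotation lists CYP81F1 under the symbol CYP91A2.

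Indole glucosinolates are sulphur-rich defence compounds made from tryptophan and found in cabbages and their relatives. CYP81F enzymes hydroxylate the parent compound, indol-3-ylmethyl glucosinolate, on its indole ring: CYP81F2 acts mainly on a ring carbon and CYP81F4 on the ring nitrogen. IGMT1 and IGMT2 then methylate the carbon-hydroxylated product, and IGMT5 methylates the nitrogen-hydroxylated one. PEN2 is an atypical myrosinase, an enzyme that cleaves glucosinolates, and works on indole glucosinolates during defence against microbes. IGMT1, IGMT3, IGMT2 and IGMT4 lie side by side in that order on chromosome 1, while IGMT5 lies elsewhere on it. As similar neighbouring copies they could share reads, so how their values divide among them is uncertain. CYP81F3, CYP81F4 and CYP81F1 are close neighbours on chromosome 4, with 1 gene between each pair.

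The samples were wild type (WT) and rdd, a triple mutant line of ROS1, DML2 and DML3, which encode DNA demethylases. Seedlings were 10 days old, grown on plates, and were collected after 0, 1 and 3 h in flg22 (100 nM), a flagellin peptide sensed by the receptor FLS2, with 3 libraries in each of the 6 groups. Plants 4 weeks old, grown in soil, had their leaves inoculated by hand with either water or flg22 (100 nM) and were collected 24 h later, with 3 libraries in each of the 4 groups. In the last set, which the labels call priming, leaves had the same 24 h of either water or flg22 and were then given Pseudomonas syringae DC3000 hrcC, which lacks a working type III secretion system, for 1 h, with 2 libraries in each of the 4 groups. All 4 priming groups thus received bacteria. No water-treated seedling group at 1 or 3 h is used here, so flg22 and time cannot be told apart in seedlings. Values are FPKM (fragment counts divided by gene length and library size), which allow levels of different genes to be set side by side. Levels are given per library or as mean ± SD. Changes are log2 fold changes of FPKM + 1, ± SE, and a gene was called at an adjusted p under 0.05 in limma.

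Total FPKM lay between 904625 and 1231239 per library, and between 18555 and 22032 genes were above 0. In the 12 leaf libraries the share of FPKM in organelle genes separated the replicate numbers: it was 0.0734% to 0.0979% in the 4 libraries numbered 3 and 3.03% to 5.54% in the 8 numbered 1 and 2. Transcripts of ROS1 did not check the genotype labels: at 0 h its level was 7.22 ± 3.08 FPKM in the rdd seedlings and 6.80 ± 1.37 in the WT seedlings, and it was higher in rdd in both priming conditions (1.15 ± 0.14 after water, adjusted p = 0.0175, and 1.03 ± 0.14 after flg22, adjusted p = 0.0159, limma). The first call was lost without any 1 of its 4 libraries (adjusted p from 0.0736 to 0.117) and the second without 3 of its 4 (from 0.0651 to 0.125). DML2 passed the test in no condition. DML3 was lower in flg22-treated rdd leaves (0.34 ± 0.08 against 2.83 ± 0.67 FPKM; -1.50 ± 0.19, adjusted p = 0.0173), a call lost in 7 of 21 alternatives. The rdd libraries are therefore those labelled rdd. The 12 root markers summed to 95.4 to 184 FPKM in seedlings, where 0 to 3 of them were at 0. They summed to 17.4 to 27.9 FPKM in leaves (7 to 10 at 0) and to 9.15 to 13.6 in the priming set (8 to 10 at 0).

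The 10 genes differed in where they were expressed before they differed in response. CYP81F4 was the clearest case. It stood at 131, 131 and 179 FPKM in the WT seedlings at 0 h and at 143, 201 and 145 in the rdd seedlings, and never below 68.8 FPKM in a seedling library. In WT leaves it was listed at 0 in all 6 libraries and in all 4 priming libraries. In rdd it was above 0 in 4 of 10 leaf and priming libraries, at 0.04 to 0.59 FPKM. Among the 4 CYP81F genes, it made up 94.5% ± 1.04 (SD, n = 3) of their summed FPKM in WT seedlings at 0 h. The root marker sums were also higher in seedlings than in leaves; the part of root tissue in the level of CYP81F4 was not tested.

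IGMT1, which methylates the carbon-hydroxylated product, likewise stood far higher in seedlings. The WT seedlings at 0 h held 104, 88.5 and 91.9 FPKM of IGMT1, and water-treated WT leaves held 4.54, 3.66 and 1.2. IGMT4 had the highest level of its family in each of the 14 groups. In WT it stood at 222 ± 17.7 FPKM in seedlings at 0 h and at 265 ± 45.6 in water-treated leaves, and made up 64.2% of the summed IGMT level in those seedlings and 92.4% in those leaves. IGMT2 was low in both, at 1.66 ± 0.18 FPKM in WT seedlings at 0 h and 4.68 ± 2.98 in water-treated WT leaves. CYP81F1 and CYP81F3 stayed within a low range in every library, at 2.01 to 13.4 and 1.26 to 12.2 FPKM. Seedlings differed from the leaves in age and growth, and whether the 24 h and priming leaves were grown together is not stated. Levels are therefore set side by side across the 3 sets and were not tested.

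**Figure D1:**
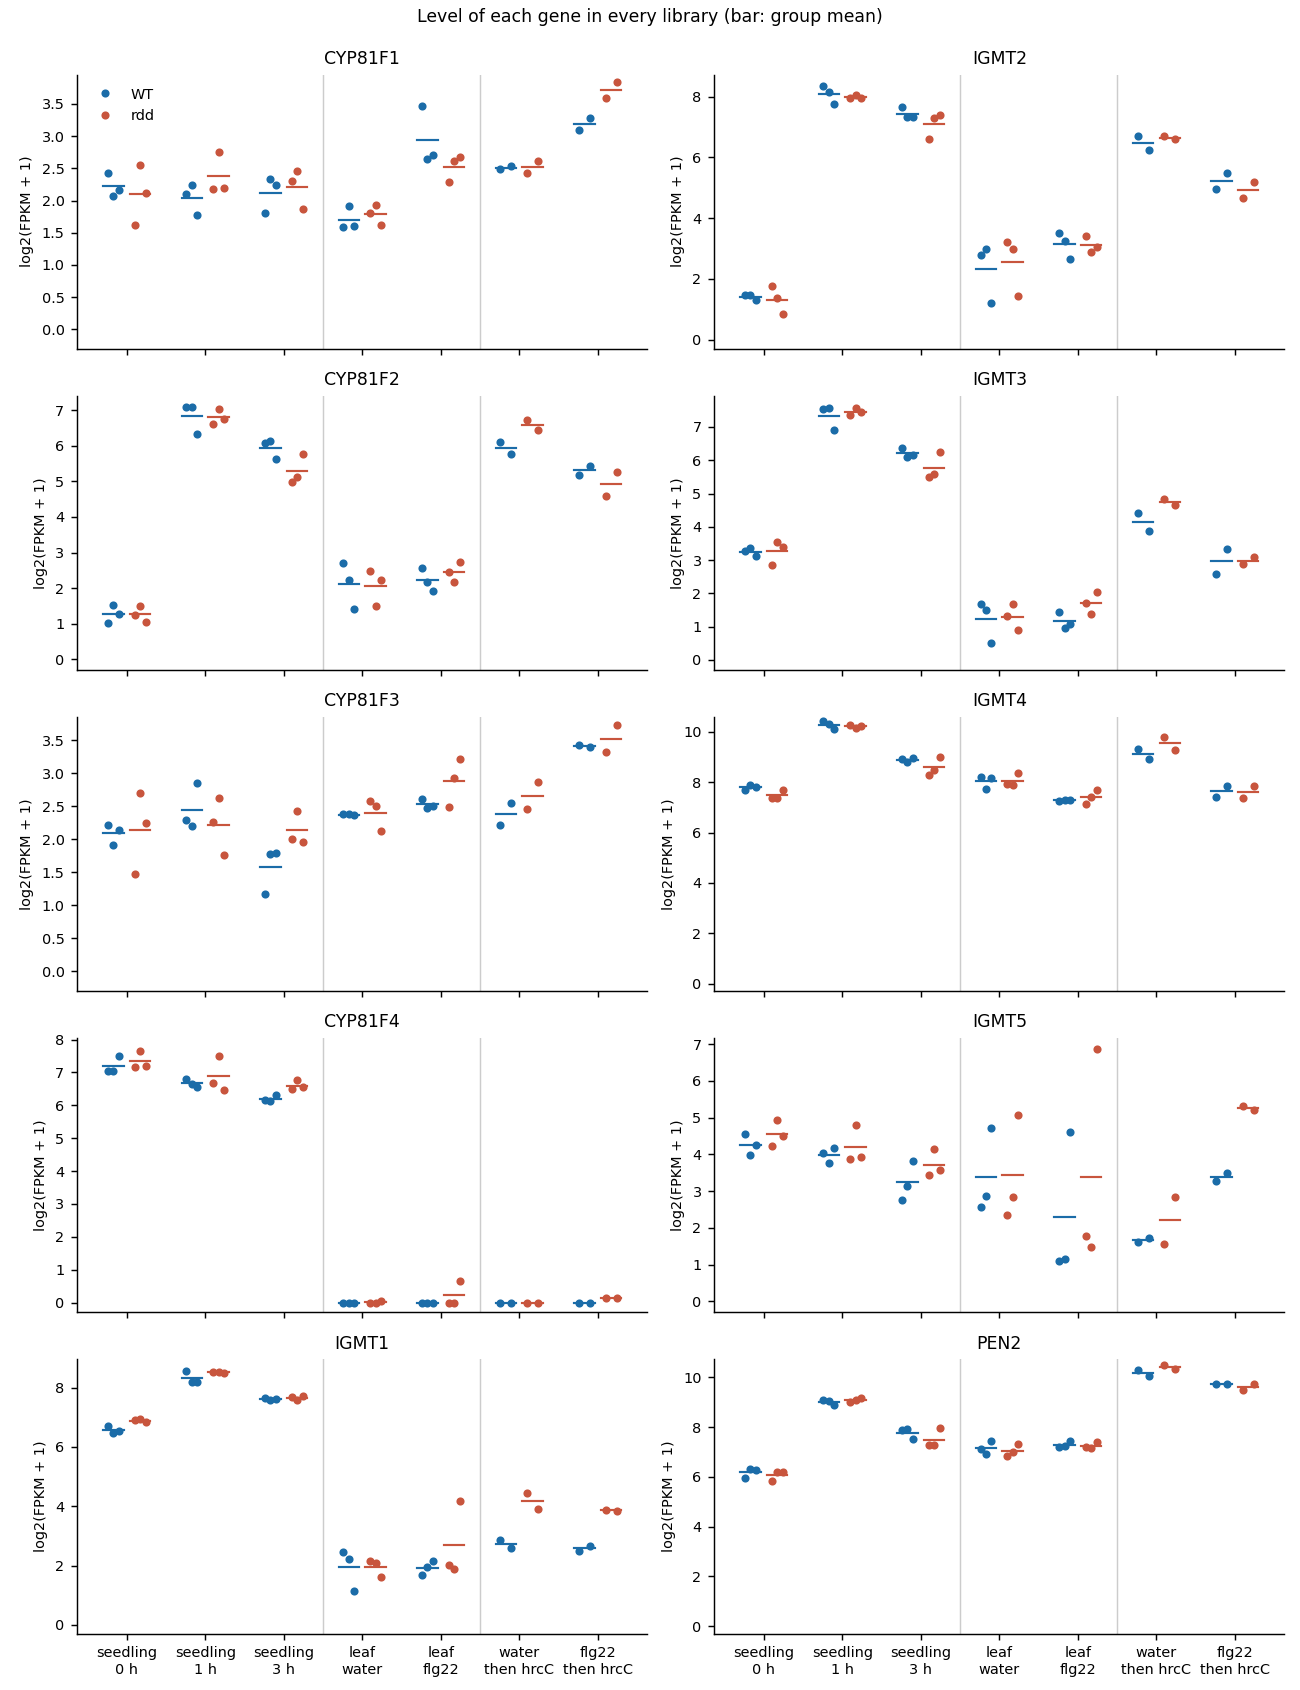
Level of each of the 10 genes in every library, as log2(FPKM + 1), by group along the horizontal axis, with WT in blue, rdd in red and a bar at each group mean. CYP81F4 is above 68 FPKM in every seedling library and under 1 FPKM in every leaf library, and CYP81F2, IGMT2, IGMT3 and PEN2 rise steeply from 0 h to 1 h.

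Over the 14 groups, CYP81F2 and the IGMT genes other than IGMT5 were highest in seedlings at 1 h of flg22. CYP81F2 ran from 117 FPKM in WT at 1 h down to 1.42 in rdd at 0 h, IGMT2 from 275 to 1.58 in those same groups, and IGMT4 from 1246 in WT at 1 h to 154 FPKM in flg22-treated WT leaves. IGMT1 (366 to 2.84 FPKM) and IGMT3 (175 to 1.27 FPKM) ran from rdd at 1 h to those same leaves. CYP81F4 was highest in rdd seedlings at 0 h, at 163 FPKM. IGMT5 ran from 40.2 FPKM in flg22-treated rdd leaves, where 1 library sets the mean, to 2.19 in WT after water and hrcC. PEN2 was highest in the priming set, at 1369 FPKM in rdd after water and 1151 in WT after water, and lowest in rdd seedlings at 0 h (67.4). CYP81F1 (12.2 FPKM) and CYP81F3 (10.6 FPKM) were highest in rdd leaves given flg22 and then hrcC. Neighbouring groups in this order often could not be separated: of the 13 neighbouring pairs for each gene, the libraries overlapped in 12 for CYP81F1, IGMT4 and IGMT5, in 11 for CYP81F2 and CYP81F3, in 10 for CYP81F4 and IGMT2, in 8 for IGMT3 and in 7 for IGMT1 and PEN2.

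The first comparison asked what 1 h of flg22 did in seedlings. In WT, 6 of the 10 genes rose and 0 fell: CYP81F2, IGMT1, IGMT2, IGMT3, IGMT4 and PEN2. Over all 18886 genes tested, 9.62% were called higher and 7.64% lower. The members' median change was 2.11 on the log2 scale, against -0.08 for all genes. In rdd the same 6 genes rose and 0 fell, with 10.2% of all genes called higher and 6.58% lower, and with a median of 2.18 against -0.05. CYP81F4, the other seedling P450 of high level, did not pass in WT (-0.52 ± 0.21, adjusted p = 0.111). Fitted on its own pair of groups it passed (adjusted p = 0.0321, limma). In rdd CYP81F4 was called lower without rdd 1 h replicate 2 (-0.76, adjusted p = 0.00623). That library held 181 FPKM, and the others of its group held 102 and 87.9.

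CYP81F2, the carbon hydroxylase, stood at 1.01, 1.89 and 1.41 FPKM in WT seedlings at 0 h and at 136, 136 and 79.6 after 1 h. The ratio of the group means was 81.7, and the change was 5.58 ± 0.24 (adjusted p = 3.1e-11, limma). Both groups lay far apart in every library, and the rdd libraries moved from 1.37, 1.83 and 1.07 to 96.2, 131 and 107 FPKM, a change of 5.54 ± 0.24. At 1 h CYP81F2 made up 51.3% ± 6.59 of the summed CYP81F level in WT, having been 0.947% ± 0.362 at 0 h, while the share of CYP81F4 went from 94.5% to 45.2% ± 5.58. CYP81F1 and CYP81F3 did not pass the test at 1 h in either genotype (changes between -0.18 and 0.36).

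IGMT2 showed the largest change of the family. The WT libraries stood at 1.78, 1.74 and 1.45 FPKM at 0 h and at 326, 283 and 218 at 1 h, a ratio of 166 between means and a change of 6.68 ± 0.22 (adjusted p = 2.4e-12). IGMT3, a methyltransferase of the same row of genes, went from 8.75, 9.34 and 7.65 to 186, 191 and 118 FPKM (4.08 ± 0.21, adjusted p = 2.8e-10). IGMT1 and IGMT4 were abundant before flg22 and rose by less. IGMT1 reached 382, 291 and 294 FPKM, 3.40 times its level at 0 h (1.75 ± 0.11, adjusted p = 2.2e-09). IGMT4 went from 203, 238 and 225 to 1371, 1253 and 1113 FPKM, 5.61 times its level at 0 h (2.48 ± 0.15, adjusted p = 2.2e-09). The 5 IGMT genes together went from 346 ± 6.09 to 2023 ± 260 FPKM (n = 3), of which IGMT2 made up 0.479% at 0 h and 13.5% at 1 h. IGMT5, the methyltransferase of the nitrogen branch, overlapped between times, at 22.7, 14.8 and 18.2 FPKM and then 15.4, 12.7 and 17.1 (-0.27 ± 0.29, adjusted p = 0.62).

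PEN2, the myrosinase, stood at 60.5, 79.4 and 77.5 FPKM in WT at 0 h and at 538, 531 and 470 at 1 h, 7.08 times as high (2.81 ± 0.18, adjusted p = 2.7e-09). In rdd it went from 56.4, 73.0 and 72.8 to 519, 540.3 and 569 FPKM (3.00 ± 0.18). The lowest library at 1 h was above the highest at 0 h in both genotypes.

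**Figure D2:**
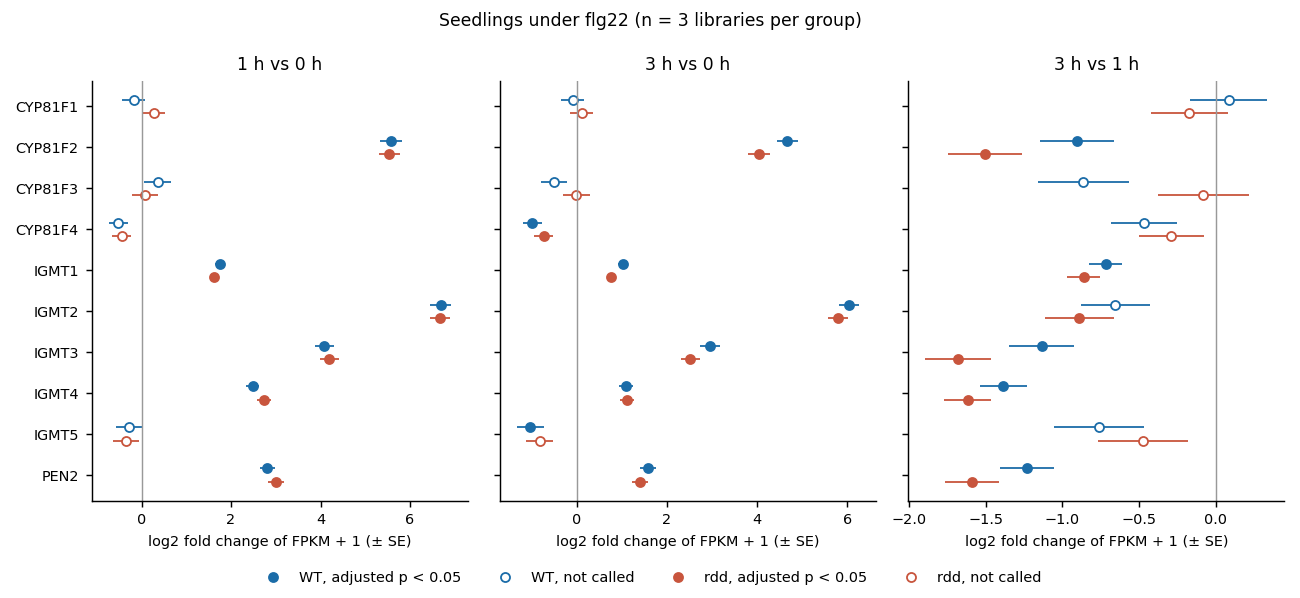
Log2 fold change of FPKM + 1 (± SE) of each gene in seedlings, for 1 h against 0 h, 3 h against 0 h and 3 h against 1 h, with WT in blue, rdd in red and filled points for adjusted p under 0.05. CYP81F2, IGMT1 to IGMT4 and PEN2 are higher at both times than at 0 h, and CYP81F4 lies below 0 at both times, filled at 3 h only.

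By 3 h the same 6 genes were still higher than at 0 h, but the nitrogen branch had come down. In WT 6 members were called higher (12.1% of all genes) and 2 lower (6.81% of all genes), with a median of 1.06 against 0.08. The pair called lower was CYP81F4 and IGMT5. CYP81F4, the nitrogen hydroxylase, stood at 70.4, 68.8 and 78.5 FPKM, below every library at 0 h (-0.99 ± 0.21, adjusted p = 0.0029). IGMT5 stood at 5.72, 7.80 and 13.2 FPKM (-1.03 ± 0.29, adjusted p = 0.020), a call lost without WT 0 h replicate 1 (adjusted p = 0.0951) or 3 (0.0509), or without WT 3 h replicate 1 (0.111) or 2 (0.0691). The root markers summed to 109 to 142 FPKM in WT at 0 h and to 95.4 to 102 at 3 h, and 2 of 10 tested were called lower; their part in the fall of CYP81F4 and IGMT5 was not tested.

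In rdd at 3 h, 6 members were called higher and 1 lower, where 8.04% of all genes were called higher and 8.03% lower. The gene called lower was CYP81F4, at 88.5, 109 and 92.4 FPKM (-0.74 ± 0.21, adjusted p = 0.0254); the call was lost with median-ratio scaling (0.0513), with the compared groups alone (0.0580), and without rdd 0 h replicate 2 (0.119), rdd 3 h replicate 1 (0.0682) or replicate 3 (0.0530). IGMT5 did not pass (-0.83 ± 0.29, adjusted p = 0.0656, limma). It was called lower without rdd 0 h replicate 1 (0.0412), rdd 1 h replicate 2 (0.0451), rdd 3 h replicate 2 (0.0383) or WT 3 h replicate 3 (0.0456). The libraries labelled rdd at 3 h include replicate 2, with an organelle share of 2.85% and the fewest genes above 0 of all 38 libraries.

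From 1 h to 3 h the induced genes came part of the way back. In WT 5 members fell (6.77% of all genes) and 0 rose (11.9% of all genes), with a median of -0.81 against 0.13. IGMT4 fell the most, to 482, 443 and 501 FPKM (-1.39 ± 0.15), followed by PEN2 at 238, 239 and 180.5 FPKM (-1.23 ± 0.18) and IGMT3 at 81.1, 68.2 and 69.7 FPKM (-1.14 ± 0.21). IGMT1, at 198, 189 and 195 FPKM, fell by 0.72. CYP81F2, at 66.2, 69.0 and 48.1 FPKM, fell by 0.91 (adjusted p = 0.0144), a call lost without WT 1 h replicate 1 (0.0686) or 2 (0.0555) or WT 3 h replicate 3 (0.0735). IGMT2, at 202, 160.3 and 158 FPKM, did not pass in WT (-0.65 ± 0.22, adjusted p = 0.0517, limma). In WT it passed at a pseudocount of 5 (0.0180), with median-ratio scaling (0.0231) and with the compared groups alone (0.0189). It also passed without WT 1 h replicate 3 (0.0392), without rdd 0 h replicate 1 or 3, or without any 1 rdd 3 h library.

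In rdd 6 members fell from 1 h to 3 h (7.26% of all genes) and 0 rose (4.16% of all genes). They were the 5 of WT and IGMT2, whose change was -0.89 ± 0.22 (adjusted p = 0.0151), a call lost at a pseudocount of 0.1 (0.0571), with the compared groups alone (0.0522), and without rdd 1 h replicate 2 (0.0576) or rdd 3 h replicate 1 (0.0788). The scaling mattered to the count in WT. Median-ratio scaling moved the median of all genes from 0.13 to -0.01. It moved the share of higher ones among the called genes from 63.8% to 47.0%. Under this scaling 9 of the 10 members were called lower. The share of all tested genes called lower under it is not given here, so the 9 is not set against a background.

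The genotypes were compared within each time. No member was called between rdd and WT seedlings at 0, 1 or 3 h in limma, where 0.323%, 0.286% and 0.953% of all genes were called; 1, 0 and 1 members had an unadjusted p under 0.05. At 0 h that was IGMT1, at 119, 122 and 113 FPKM in rdd against 104, 88.5 and 91.9 in WT (0.31 ± 0.11, adjusted p = 0.469). At 3 h it was CYP81F2, at 30.9, 33.7 and 53.9 FPKM in rdd against 66.2, 69.0 and 48.1 in WT (-0.64 ± 0.24, adjusted p = 0.164); without rdd 3 h replicate 3 CYP81F2 (-0.88, adjusted p = 0.0366) and IGMT4 (-0.51, adjusted p = 0.0294) were called lower in rdd. The difference in response itself was called for 0 of the 10 genes at 1 h and 0 at 3 h, against 0.0106% and 0.00529% of all genes, and 0 had an unadjusted p under 0.05 in either. The differences in the 1 h response ranged from -0.29 ± 0.42 for CYP81F3 to 0.46 ± 0.36 for CYP81F1, and for the 6 induced genes from -0.12 ± 0.15 (IGMT1) to 0.25 ± 0.22 (IGMT4). At 3 h they ranged from -0.64 ± 0.34 for CYP81F2 (adjusted p = 0.567) to 0.50 ± 0.42 for CYP81F3 (adjusted p = 0.644), with IGMT3 at -0.44 ± 0.30.

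**Figure D3:**
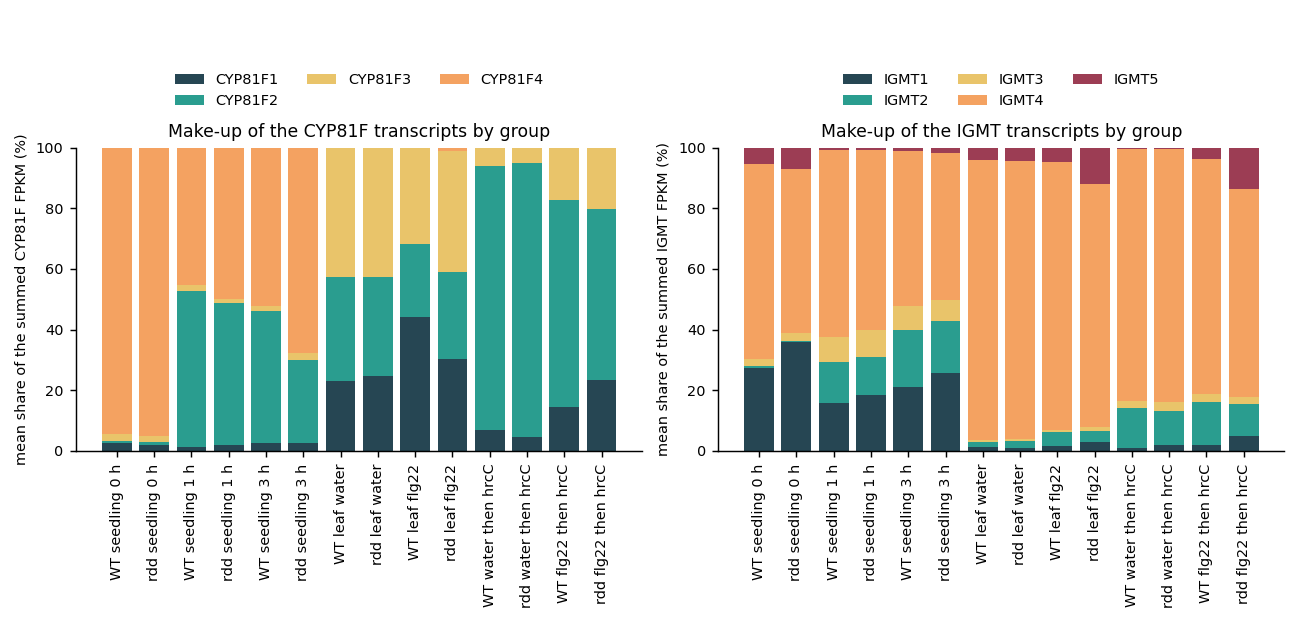
Mean share of each gene in the summed FPKM of its family, in percent, for the CYP81F genes (left) and the IGMT genes (right), in each of the 14 groups. CYP81F4 makes up 94.5% of the CYP81F level in WT seedlings at 0 h and 0% in WT leaves, and IGMT4 is the largest part of the IGMT level in every group.

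In leaves 24 h after flg22, few of the modification genes were called against water. Age, growth, time and the type of control also differ from the seedlings, so this is not a contrast of tissues. In WT, of 9 members tested (CYP81F4 was below the filter), CYP81F1 rose and IGMT4 fell. Over all 18164 genes, 14.8% were called higher and 8.3% lower, so 1 of 9 in each direction is near the background. The median change was 0.10 for the members and 0.10 for all genes. CYP81F1 stood at 2.01, 2.78 and 2.04 FPKM after water and at 10.1, 5.24 and 5.53 after flg22, with no overlap (1.24 ± 0.24, adjusted p = 0.0050). IGMT4 stood at 294, 213 and 289 FPKM after water and at 151, 156 and 154 after flg22, again with no overlap (-0.77 ± 0.21, adjusted p = 0.0246). The call for IGMT4 was lost with the compared groups alone (adjusted p = 0.0595) and when WT water replicate 1 (0.0863) or 3 (0.0655) or WT flg22 replicate 1 (0.0791), 2 (0.0547) or 3 (0.0501) was left out. The leaf photosynthesis markers also moved: the 6 summed to 42621 to 43257 FPKM after water and to 14308 to 24311 after flg22 in WT, and their part in the change of IGMT4 was not tested. In bulk leaves, fewer cells of a type and less RNA per cell cannot be told apart.

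CYP81F2, PEN2 and IGMT2, which rose in seedlings, did not pass in WT leaves at 24 h. CYP81F2 stood at 5.56, 3.67 and 1.68 FPKM after water and 4.97, 3.53 and 2.76 after flg22 (0.10 ± 0.36, adjusted p = 0.885). PEN2 stood at 137, 120.04 and 174 FPKM after water and at 145, 149 and 171 after flg22 (0.12 ± 0.19, adjusted p = 0.708). IGMT2 overlapped at 5.82, 6.93 and 1.30 against 10.3, 8.54 and 5.23 FPKM (0.81 ± 0.55, adjusted p = 0.329). It was higher after flg22 in each of the 3 same-numbered pairs, by 0.73, 0.27 and 1.44, with an adjusted p of 0.0722 with the replicate number as a block. A p that misses the threshold does not show that these levels were equal.

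In rdd leaves 0 members passed in limma, where 12.8% of all genes were called higher and 3.72% lower; 3 had an unadjusted p under 0.05. CYP81F1 went from 2.5, 2.80 and 2.09 to 3.89, 5.14 and 5.37 FPKM (0.74 ± 0.24, adjusted p = 0.0594), and IGMT4 from 239, 233 and 331 to 139.6, 169 and 203 FPKM (-0.64 ± 0.21, adjusted p = 0.0616). The replicate numbers were taken to pair the leaf libraries, although those numbered 1 correlated with those numbered 2 about as strongly as same-numbered ones did. With the replicate number as a block in limma both passed, at adjusted p = 0.0330 for CYP81F1 and 0.0121 for IGMT4. That fit called many more genes: 30.4% of all genes were higher and 10.9% lower in rdd, and 29.6% and 17.9% in WT, where the same 2 members passed. So 1 of 9 members in each direction is near or below the share of all genes. The remaining one by its unadjusted p was CYP81F3, at 4.94, 4.64 and 3.36 FPKM after water and 4.59, 6.61 and 8.28 after flg22 (0.48 ± 0.20, adjusted p = 0.133).

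IGMT5 in leaves depended on the replicate number. In WT it stood at 4.92 and 6.37 FPKM after water and 1.16 and 1.24 after flg22 in libraries 1 and 2, but at 25.4 and 23.5 FPKM in the libraries numbered 3. In rdd it stood at 4.15 and 6.21 after water and 2.41 and 1.81 after flg22 in libraries 1 and 2, and at 32.8 and 116 FPKM in those numbered 3. The libraries numbered 3, which also hold the low organelle share, were thus higher than every other leaf library. With all libraries the change in WT was -1.09 ± 1.49 (adjusted p = 0.662) and in rdd -0.05 ± 1.49 (adjusted p = 0.989). With the replicate number as a block in limma the SE was 0.58 in both genotypes. Neither change passed in that fit (adjusted p = 0.154 in WT and 0.951 in rdd). With the libraries numbered 1 and 2 only, an alternative chosen after seeing the data, IGMT5 was lower after flg22 in WT (-1.59 ± 0.21, adjusted p = 0.00165) and in rdd (-0.98 ± 0.21, adjusted p = 0.0108). In that fit CYP81F1 in WT kept its call (1.30 ± 0.29, adjusted p = 0.00933), IGMT4 was lower in both genotypes (adjusted p = 0.0141 in WT and 0.0245 in rdd), and IGMT1 was lower in WT (-0.53 ± 0.16, adjusted p = 0.0325). CYP81F1 in rdd did not pass in it (0.59 ± 0.29, adjusted p = 0.13). Of all genes, 31.5% were called higher and 18.1% lower in WT in that fit, and 32.3% and 13.5% in rdd.

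The library of rdd flg22 leaves numbered 3 also held the highest IGMT1 of the set, 17.1 FPKM, where the other 11 leaf libraries lay between 1.2 and 4.54. It held the highest CYP81F4 of the leaves, 0.59 FPKM. Its root markers summed to 27.5 FPKM, with 8 of 12 at 0, while the WT flg22 library numbered 3 summed to 27.9 with 9 at 0 and the others to 17.4 to 22.6; the part of root markers in these levels was not tested.

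**Figure D4:**
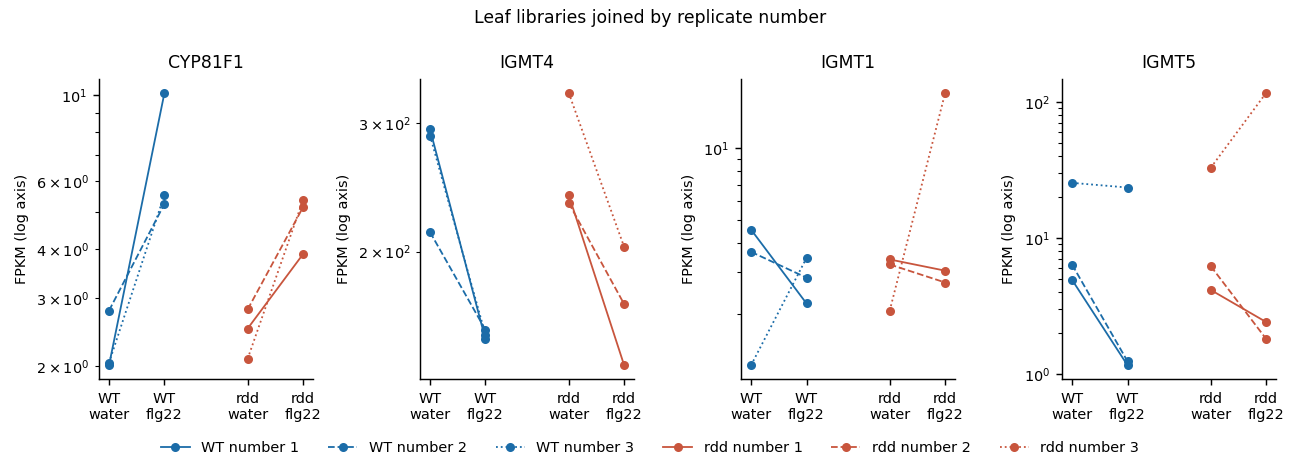
FPKM (log axis) of CYP81F1, IGMT4, IGMT1 and IGMT5 in leaves after water and after flg22, with lines joining libraries of the same genotype and replicate number (WT in blue, rdd in red; solid, dashed and dotted for numbers 1, 2 and 3). CYP81F1 rises and IGMT4 falls along all 6 lines, while the IGMT5 libraries numbered 3 lie at 23.5 to 116 FPKM, above all others.

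Between the genotypes in leaves, 0 of 9 members were called after water or after flg22 in limma, where 0.0881% and 0.171% of all genes were called, and 0 had an unadjusted p under 0.05 in either. The widest gap was in IGMT5 after flg22 (1.08 ± 1.49), whose size rests on the library with 116 FPKM. By replicate number, rdd held 2.41, 1.81 and 116 FPKM and WT held 1.16, 1.24 and 23.5. The gap was 1.08 ± 0.58 with the replicate number as a block in limma (adjusted p = 0.561). With the libraries numbered 1 and 2 only it was 0.49 ± 0.21 (adjusted p = 0.4725). The difference in the flg22 response was called for 0 of the 9 and for 0 of all genes; 0 members had an unadjusted p under 0.05.

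In the priming set both pretreatments were followed by hrcC bacteria, so the comparison asks how 24 h of flg22 changed what was seen 1 h after the bacteria. Members were called in both directions. In WT 3 of the 9 tested were higher after flg22 (CYP81F1, CYP81F3 and IGMT5) and 4 were lower (IGMT2, IGMT3, IGMT4 and PEN2). Of all 17780 genes, 22.4% were called higher and 23% lower, and the members' median was -0.43 against 0.00. In rdd the same 3 were higher and the same 4 and CYP81F2 were lower, where 22% and 18.6% of all genes were called and the median was -0.81 against 0.03. With only 9 members tested, 3 called higher is near the share of all genes. None of these counts was tested against those shares. With 2 libraries per group the SE is pooled from the 4 groups.

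The largest fall in WT was in IGMT4, from 634 and 488 FPKM after water to 168 and 232 after flg22 (-1.49 ± 0.25, adjusted p = 0.0026). In rdd it went from 879 and 628 to 164 and 226 FPKM (-1.94 ± 0.25, adjusted p = 0.000998). IGMT2 fell from 103 and 75.4 to 30.1 and 44.0 FPKM in WT (-1.25 ± 0.24, adjusted p = 0.0046) and from 102 and 96.1 to 24.6 and 35.4 in rdd (-1.71 ± 0.24, adjusted p = 0.0014). IGMT3 fell from 20.4 and 13.5 to 4.99 and 9.09 FPKM in WT (-1.18 ± 0.27, adjusted p = 0.0106), a call lost without the first water library (0.0609), and from 27.7 and 24.1 to 6.31 and 7.51 in rdd (-1.77 ± 0.27, adjusted p = 0.0022). In none of these 3 genes did a flg22 library reach a water library of its genotype.

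CYP81F2 stood at 68.6 and 53.9 FPKM in WT after water and at 35.5 and 42.1 after flg22 (-0.64 ± 0.23, adjusted p = 0.0569), and passed in WT when the rdd libraries were left out of the fit (0.0145). In rdd it fell from 104 and 87.0 to 23.0 and 37.6 FPKM (-1.66 ± 0.23, adjusted p = 0.00145). PEN2 was abundant in all 8 libraries. It fell from 1256 and 1047 to 855 and 842 FPKM in WT (-0.43 ± 0.13, adjusted p = 0.0294), a call lost without the first water library (0.158) or either flg22 library (0.0975 and 0.119), and from 1431 and 1306 to 722 and 838 in rdd (-0.81 ± 0.13, adjusted p = 0.0024). IGMT1 did not pass in WT (-0.14 ± 0.19, adjusted p = 0.569) or in rdd (-0.31 ± 0.19, adjusted p = 0.217).

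IGMT5 rose from 2.08 and 2.29 to 8.68 and 10.3 FPKM in WT (1.72 ± 0.36, adjusted p = 0.0069) and from 1.96 and 6.19 to 39.2 and 36.3 in rdd (3.07 ± 0.36, adjusted p = 0.00067). CYP81F1 rose from 4.59 and 4.79 to 7.56 and 8.70 FPKM in WT (0.68 ± 0.14, adjusted p = 0.0060) and from 4.40 and 5.12 to 11.1 and 13.4 in rdd (1.2 ± 0.14, adjusted p = 0.00058). CYP81F3 rose from 3.63 and 4.86 to 9.74 and 9.52 FPKM in WT (1.03 ± 0.20, adjusted p = 0.0048). In rdd CYP81F3 went from 4.48 and 6.30 to 8.99 and 12.2 FPKM (0.86 ± 0.20, adjusted p = 0.0118), a call lost without the first water library (0.0719) or the second flg22 library (0.0717). Beside these changes the 6 leaf photosynthesis markers, all called lower after flg22 in both genotypes, summed to 18778 to 22181 FPKM after water and 6859 to 8526 after flg22 in WT, and to 16624 to 19107 and 6164 to 7245 in rdd. Their part in these results was not tested.

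**Figure D5:**
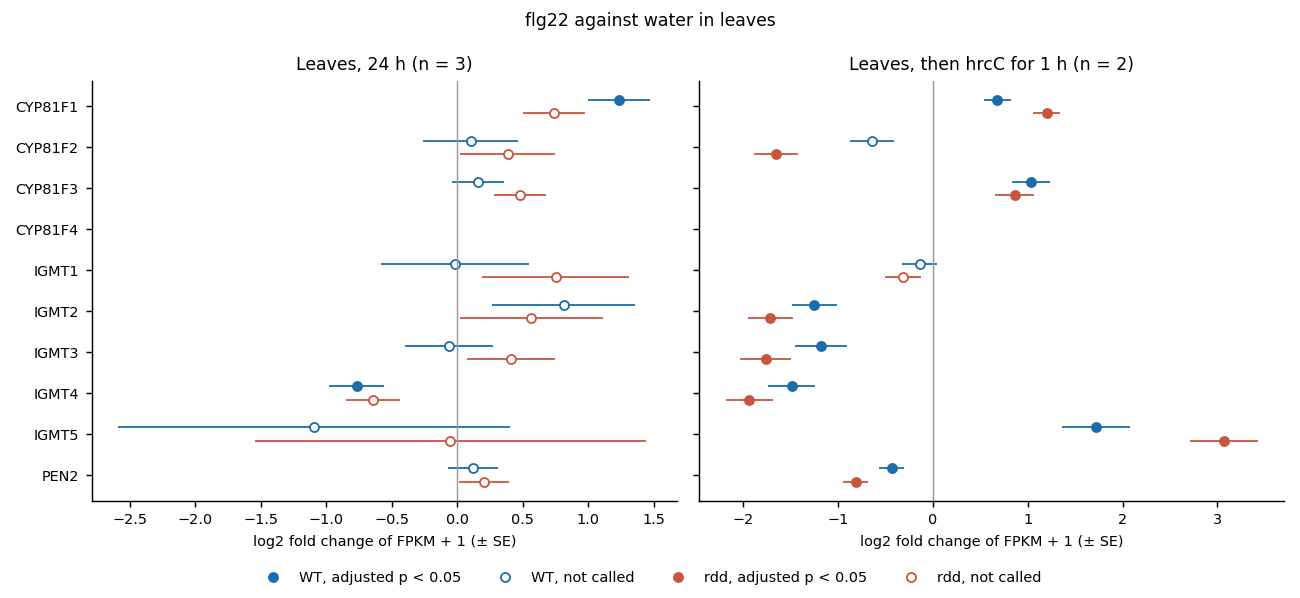
Log2 fold change of FPKM + 1 (± SE) of each tested gene, flg22 against water, in leaves at 24 h (n = 3) and in leaves that then received hrcC for 1 h (n = 2), with WT in blue, rdd in red and filled points for adjusted p under 0.05. In the priming set CYP81F1, CYP81F3 and IGMT5 lie above 0 and IGMT2, IGMT3, IGMT4 and PEN2 below 0 in both genotypes.

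IGMT1 and IGMT5 were the members that differed between the genotypes in the priming set. IGMT1 after water and hrcC stood at 20.8 and 14.03 FPKM in rdd against 6.25 and 5.0 in WT (1.46 ± 0.19, adjusted p = 0.0187), and was the 1 member called higher among 9, where 0.641% of all genes were; 0 were lower (0.304% of all genes). After flg22 and hrcC it stood at 13.8 and 13.4 FPKM in rdd against 4.65 and 5.33 in WT (1.28 ± 0.19, adjusted p = 0.0182). IGMT5 after flg22 and hrcC stood at 39.2 and 36.3 FPKM in rdd against 8.68 and 10.3 in WT (1.89 ± 0.36, adjusted p = 0.0490). Those 2 were called higher where 1.46% of all genes were, and 0 lower where 0.624% were. The libraries of the genotypes did not overlap in any of these 3 comparisons.

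These genotype calls were fragile with 2 libraries a group. IGMT1 after water was lost with the compared groups alone (adjusted p = 0.0611) and without WT replicate 1 (0.0549), WT replicate 2 (0.140) or rdd replicate 1 (0.0687). IGMT1 after flg22 was lost without WT replicate 1 (0.143) or 2 (0.0824) or rdd replicate 1 (0.0934) or 2 (0.0656). IGMT5 after flg22 was lost at a pseudocount of 0.1 (adjusted p = 0.0909), with no filter (0.0835), with median-ratio scaling (0.0520), without trend and robust variances (0.0597) and with the replicate block (0.0577). It was also lost in 6 of 8 fits that left out a library, at adjusted p = 0.0796 without WT water replicate 1, 0.0801 without WT water replicate 2, 0.251 and 0.154 without WT flg22 replicate 1 or 2, and 0.235 and 0.152 without rdd flg22 replicate 1 or 2. The difference in the effect of the flg22 pretreatment was called for 0 of the 9 members and for 0.0956% of all genes; 3 members had an unadjusted p under 0.05: CYP81F1 (0.52 ± 0.20, adjusted p = 0.368), CYP81F2 (-1.02 ± 0.33, adjusted p = 0.298) and IGMT5 (1.35 ± 0.50, adjusted p = 0.365). For IGMT5 it was called without rdd water replicate 2 (1.99, adjusted p = 0.0372).

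Set beside the leaves that received no bacteria, the leaves given hrcC held higher mean levels of several members. In WT leaves pretreated with water, CYP81F2 averaged 61.2 FPKM with hrcC and 3.64 without, IGMT2 89.2 and 4.68, IGMT3 17.0 and 1.48, and PEN2 1151 and 144. IGMT5 went the other way, at 2.19 FPKM with hrcC and 12.2 without. The size of the latter mean rests on the library numbered 3. Numbers 1 and 2 held 4.92 and 6.37 FPKM, still above the 2.08 and 2.29 with hrcC. Whether these sets were grown and made together is not stated, so set and hrcC cannot be told apart. The organelle share was 0.0818% to 0.117% in the priming set, near that of the leaf libraries numbered 3. The values are therefore given without a test.

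Beside the members, 78 genes in 11 lists were followed, the genotype and marker genes among them. Their counts in WT seedlings at 1 h are read against 9.62% of all genes called higher and 7.64% lower. In WT seedlings at 1 h, 8 of 9 core synthesis genes rose and 0 fell (median 1.74), among them SOT16, the sulphotransferase of the last step (3.53 ± 0.16), GGP1, a peptidase of the glutathione step (3.18 ± 0.15), and CYP83B1, which makes the oxidised indole intermediate (2.82 ± 0.17). Of 7 tryptophan synthesis genes 5 rose (median 1.85), including the anthranilate synthase subunits ASB1 (3.09 ± 0.22) and ASA1 (2.47 ± 0.21) and the tryptophan synthase subunit TSA1 (2.12 ± 0.22). Of 6 regulators 1 was called, MYB51, an activator of indole glucosinolate synthesis (3.69 ± 0.18). Of 7 transport genes and partners of PEN2, 5 rose (median 0.97), with PCS1 (annotated as CAD1), a phytochelatin synthase that acts in the PEN2 pathway, at 4.01 ± 0.21, the syntaxin PEN1 at 2.76 ± 0.12 and the transporter PEN3 at 2.47 ± 0.16. All of these had an adjusted p under 0.05 in limma.

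Of 9 other myrosinases and beta-glucosidases 0 were called at 1 h, and of 4 camalexin genes tested 3 rose: GSTF6 (3.72 ± 0.33), CYP71A12, which starts the branch from indole-3-acetaldoxime (2.07 ± 0.45), and the transcription factor WRKY33 (1.56 ± 0.43). Among 5 tested CYP81 genes near CYP81F1 on chromosome 4, CYP81D8 rose (2.73 ± 0.17), CYP81D4 fell (-0.73 ± 0.16) and CYP81D5 fell (-0.43 ± 0.14; the call was lost in 17 of 26 alternatives). In rdd at 1 h the counts were 8 of 9 core synthesis genes, 5 of 7 tryptophan genes, 1 of 6 regulators and 5 of 7 transport genes and partners called higher, and 0 lower in each. Of all genes, 10.2% were called higher and 6.58% lower in rdd at 1 h. Of the marker lists in WT at 1 h, 0 of 10 root markers were called, 2 of 6 leaf markers fell, LHCB3 by 1.58 and LHCB1.2 by 0.61, and 0 of 4 phloem and epidermis markers were called.

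The calls of WRKY33 and LHCB1.2 at 1 h were each lost in 3 of 26 alternatives, in both cases without WT 0 h replicate 1 or WT 1 h replicate 1. At 3 h in WT all 9 core synthesis genes and 6 of 7 tryptophan genes were higher than at 0 h, with SOT16 at 3.23 ± 0.16 and TSA1 at 4.07 ± 0.22. Of all genes, 12.1% were called higher and 6.81% lower at 3 h in WT. MYB51 stayed the 1 regulator called (3.38 ± 0.18), and the 3 camalexin genes were CYP71A12, WRKY33 and GSTF6. Among the transport genes and PEN2 partners PEN3 (1.09 ± 0.16), PCS1 (2.30 ± 0.21) and PEN1 (1.30 ± 0.12) were higher, and the importers GTR2 (-0.66 ± 0.12) and GTR3 (-0.53 ± 0.15) were lower. Of the 9 other myrosinases and beta-glucosidases tested BGLU30 was higher (1.71 ± 0.39) and PYK10 (-0.88 ± 0.17) and BGLU21 (-1.32 ± 0.23), of which PYK10 is the main enzyme of root endoplasmic reticulum bodies, were lower. The root markers called lower were THAS and COBL9, and 5 of 6 leaf markers and 1 of 4 phloem and epidermis markers, PDF1, were also called lower. The count of root markers ranged from 0 to 4 with 1 library left out.

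In leaves at 24 h the counts of called genes are read against 14.8% of all genes called higher in WT and 12.8% in rdd. Those called lower made up 8.3% in WT and 3.72% in rdd. In WT 5 of 9 core synthesis genes rose (median 0.95), with CYP83B1 at 1.58 ± 0.34 and SOT16 at 1.27 ± 0.23, and 5 of 7 tryptophan genes rose (median 1.43), with TSA1 at 2.11 ± 0.18 and ASA1 at 1.43 ± 0.19. MYB51 rose by 1.36 ± 0.21 and MYC3, its partner transcription factor, by 0.67 ± 0.14, while MYB34 fell (-1.41 ± 0.44) among the 5 regulators tested. Of 7 transport genes and PEN2 partners 2 rose, the glucosinolate importer GTR2 (1.05 ± 0.19) and PEN1 (0.65 ± 0.15), and GSTU13 fell (-1.46 ± 0.46). Of 5 camalexin genes 4 rose, with GSTF6 at 2.98 ± 0.37 and CYP71A12 at 2.24 ± 0.28. CYP81H1 rose by 0.97 ± 0.28 and CYP81D4 fell by 1.15 among 4 CYP81 neighbours tested. Of 6 leaf markers 2 fell, LHCB1.2 (-2.65 ± 0.41) and CA1 (-4.16 ± 1.12), and of the 4 phloem and epidermis markers ATML1 fell (-1.47 ± 0.23). In rdd leaves 3 of 9 core synthesis genes (CYP79B2, CYP83B1 and SOT16), 5 of 7 tryptophan genes and 2 of 5 camalexin genes rose and 0 fell in each. The core synthesis counts leaned on single libraries: in WT the 5 became 2 without water replicate 1 or flg22 replicate 1 and 3 without water replicate 2 or flg22 replicate 3, and in rdd the 3 became 0 without water replicate 1 or flg22 replicate 2, 1 without flg22 replicate 1, and 6 with the replicate block. The 4 camalexin genes of WT became 2 without flg22 replicate 1. Of the WT leaf genes given here with a value, MYB34 (adjusted p = 0.0447) lost its call in 13 of 21 alternatives, GSTU13 (adjusted p = 0.0438) in 9, CYP81H1 in 6, CA1 in 5 and PEN1 in 2. The median of all genes was 0.10 in WT leaves and 0.18 in rdd leaves.

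In the priming set most core synthesis genes were higher after flg22, where IGMT2, IGMT3 and IGMT4 were lower. The counts are read against 22.4% of all genes called higher and 23% lower in WT, and 22% and 18.6% in rdd. In WT 6 of 9 were higher, among them the aldoxime-forming P450 gene CYP79B2 (1.47 ± 0.22), and 1, GSTF10, was lower (median 0.68). Of 7 tryptophan genes 5 were higher and 1, PAI1, was lower (median 0.51). In rdd 5 of 9 and 5 of 7 were higher and 0 lower. Of the 7 transport genes and PEN2 partners, 1 was higher and 3 lower in each genotype: GTR2 was higher in both, PCS1 and PEN1 were lower in both, and the remaining lower one was GSTU13 in WT and PEN3 in rdd. From the list of other myrosinases and beta-glucosidases, TGG1 and TGG2 were lower in both genotypes (-1.05 ± 0.15 each in WT). They were picked after their values were seen, and the count of called genes in that list is not given here.

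The genes most alike to a member across the 14 group means of log2(FPKM + 1), of 16543 compared, are given as a description, since groups share genotype, tissue and set. IGMT2 was most like CYP81F2 (Pearson r = 0.97), and CYP81F2 most like AT1G05675 (0.98) and AT1G26380 (0.98). PEN2 was most like AT3G26020 (0.99) and PCS1 (0.99). CYP81F4 was most like RCI3, AT4G22212 and AT4G30170 (1.00 each), and IGMT1 most like AT3G52480 (0.99). IGMT3 was most like AT5G51440 and HSP70 (0.99 each), IGMT4 AT1G53080 and HSP101 (0.94 each), IGMT5 EXPB3 (0.98), CYP81F1 GLR2.5 (0.95) and CYP81F3 AT2G11140 (0.93). Among the members themselves, CYP81F4 and IGMT1 had r = 0.94 and IGMT1 and IGMT3 0.86. CYP81F1 and CYP81F2 had r = 0.22.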

How the data were processed

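RNA was sequenced from 38 libraries of 14 groups; the other 32 of the 70 samples hold bisulfite data, not used here. HISAT2, featureCounts and DESeq2 with the TAIR10 build are named, per the submitters' processing notes; versions are not given in the sources used here. The deposited values carry no unit. From their decimals and similar totals they were taken to be FPKM computed by the authors. Sequencing depth is therefore unknown, and no counting interval is given. The files of single libraries and the table of the whole series held the same values (largest difference 0.0). Gene names came from the RefSeq annotation, which matched 32830 (97.7%) of the genes; its assembly is named TAIR10.1, so no coordinates are given. Of the 33597 genes, 8158 were at 0 in every library.

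The edgeR test planned for counts was not used, because the values are FPKM. Values were taken as log2(FPKM + 1), which understates changes of weakly expressed genes. A gene was tested in a set when 3 or more libraries (2 in the priming set) had 1 FPKM or more. Seedlings (18 libraries), leaves (12) and the priming set (8) had separate fits in limma 3.58.1 under R 4.3.3, with 1 mean per group and eBayes with trend and robust variances. P-values are two-sided and adjusted by Benjamini-Hochberg over all genes of a comparison. The fit was tested on simulated data in which libraries varied independently, so that test does not cover leaf libraries that deviate together. Tables and figures were made with pandas 2.3.3 and matplotlib 3.10.9. The series text states 3 repeats for RNA; the priming groups have 2 libraries here. Nothing says that libraries came from separate plants, so p-values measure the spread between these libraries, which may be technical.

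Same-numbered leaf libraries deviated together from their group means (18 correlations from 0.31 to 0.90), so the numbers were taken to pair them. The 12 correlations of a library numbered 1 with one numbered 2 were as high (0.40 to 0.74), so the pattern mainly sets the libraries numbered 3 apart. The members, the lists and the comparisons were chosen with earlier results of these data known. Named genes were all 10 members, ROS1, DML2 and DML3, up to 3 called genes per list with the smallest adjusted p in WT seedlings at 1 h and up to 2 in WT leaves, and the genes most alike to each member. List genes given in seedlings at 3 h and in the priming set, and MYB34 and GSTU13 in leaves, fall outside this rule and were chosen after their values were seen. Alternatives changed the pseudocount, the filter, the scaling, the variance model, the groups in the fit and the organelle genes, added the replicate block, or left out 1 library.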

Additional observations from a re-analysis of the deposited data

How the results depend on the processing

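Of 200 member values, 58 were called. Of these calls 53 were kept under every alternative other than leaving out 1 library. Those alternatives include the fits of the compared groups alone and the fit without the leaf libraries numbered 3. With each library left out in turn as well, 47 calls were kept, and all 58 kept their sign. Of 142 uncalled values, 17 were called under 1 or more alternatives, and 0 results reversed. In the counts below, shares of all genes called in the same fit are given only for 2 leaf fits. The other counts describe the calls and are not set against a background. With the compared groups alone in the fit, the number of members called lower was 1 for WT seedlings at 1 h against 0 h, 8 for WT at 3 h against 1 h, 0 for rdd at 3 h against 0 h and 0 for WT leaves, and the number higher in rdd after water and hrcC was 0. With median-ratio scaling 9 were lower in WT at 3 h against 1 h, 0 in rdd at 3 h against 0 h and 1 in rdd leaves; without organelle genes 1 was lower in rdd leaves. Median-ratio scaling moved the share of higher ones among the called genes from 50.0% to 62.5% in rdd at 3 h against 0 h. That share moved from 77.5% to 52.3% in rdd leaves and from 64.1% to 51.2% in WT leaves. With leaf libraries 1 and 2 only, 3 were lower in WT leaves (18.1% of all genes) and 2 in rdd leaves (13.5% of all genes). After flg22 and hrcC, 1 member was higher in rdd at a pseudocount of 0.1, with no filter, with median-ratio scaling, without trend and robust variances and with the replicate block; the call lost in each was that of IGMT5. With the replicate block 1 member was higher (30.4% of all genes) and 1 lower (10.9% of all genes) in rdd leaves. Same-numbered seedling libraries had a median correlation of 0.0016, and priming libraries one of -0.07, so there the block only marks a shared number. With 1 library left out, the members called lower ranged from 0 to 1 in WT at 1 h, 1 to 2 in WT at 3 h, 4 to 7 in WT from 1 h to 3 h, 0 to 1 in rdd at 1 h, 0 to 2 in rdd at 3 h, 0 to 2 between genotypes at 3 h, 0 to 1 in WT leaves, 0 to 1 in rdd leaves and 2 to 5 in primed WT. The members called higher ranged from 0 to 1 in rdd leaves, 0 to 1 between genotypes after water and hrcC, 0 to 2 after flg22 and hrcC, and 0 to 1 for the difference in the priming effect. The causes were not tested. Depth is unknown, so what it limits cannot be stated; values of CYP81F4 in leaves are near 0 and carry no floor.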
